A study of Mus musculus with 8 samples.

Results

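The protocadherins, the largest family of cadherin-related cell adhesion proteins, were examined in the translating RNA of parvalbumin-positive (PV+) interneurons of the mouse somatosensory cortex after their chemogenetic activation. Members were all genes whose symbol begins with Pcdh and which had 10 or more counts in at least 5 of the 8 samples. Such a symbol is carried by 71 of the 45706 genes measured, and 70 of these passed: 15 of the alpha cluster, 21 of the beta cluster, 22 of the gamma cluster and 12 that lie outside the clusters. They were 70 of the 17495 genes that passed in all. The gene left out was Pcdhb1, with 11 counts over the 8 samples.

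The protocadherins of the 3 clusters sit side by side on one chromosome. In the alpha and gamma clusters each variable exon has a promoter of its own and is spliced to constant exons shared by the whole cluster, whereas beta genes consist of a single coding exon. Neurons choose among most of these promoters in a stochastic way that depends on DNA methylation, CTCF and cohesin, while the C-type members at the downstream ends of the alpha and gamma clusters are expressed more uniformly. Clustered protocadherins bind their own kind across cell contacts and serve self-recognition of neurites, and the gamma cluster is known for its part in the survival of cortical interneurons. The non-clustered members, mostly of the delta group, are single genes on several chromosomes with roles in axon growth, synapse formation and synapse elimination, and some of them respond to neuronal activity.

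All mice were PvalbFlp/+;Neurod6Cre/+ and had received at P1 an adeno-associated virus that expresses, from the hSyn promoter, an HA-tagged ribosomal protein (RPL10a) with the excitatory designer receptor hM3Dq wherever Flp is present and Cre is absent, so that PV+ interneurons carry both and pyramidal cells with Neurod6-Cre do not. The receptor is silent until its ligand clozapine-N-oxide (CNO) is given. The 4 CNO samples came from mice injected 5 times within 48 h with CNO at 1 mg/kg, and the 4 vehicle samples from mice injected with vehicle on the same schedule, at P42 to P70 by the labels. Each sample was a pool of tissue from 4 brains, from which the tagged ribosomes were pulled down (RiboTag) before RNA sequencing. Both groups carried the virus and hM3Dq, and no RNA-seq sample had CNO without the receptor, so an effect of CNO through hM3Dq and one by another route cannot be told apart.

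Estimated counts totalled 44064138 to 49413277 per sample, of which the 70 protocadherin genes held 0.0899% to 0.106%. Levels between genes are given as TPM, a transcript abundance that accounts for transcript length and has the same total in every sample. Levels of one gene between samples are given as normalized CPM, the counts divided by library sizes that were scaled by the trimmed mean of M values, with no account of length. The 3 counts taken as the detection floor correspond to 0.0605 to 0.0671 CPM. The labelled cell type was checked against its markers: Pvalb ranged from 300 to 1160 TPM, and all 12 markers of PV interneurons passed the filter, but so did all 12 markers of pyramidal cells, with Slc17a7, the cortical vesicular glutamate transporter, at 331 to 547 TPM. Transcripts of pyramidal cells were thus measured in every sample beside those of PV+ interneurons. An index, the mean log2 CPM of the PV interneuron markers minus that of the pyramidal cell markers, was 1.90, 1.15, 1.72 and 2.31 in CNO replicates 1 to 4 and -0.05, 1.32, 1.76 and 1.62 in vehicle replicates 1 to 4. Vehicle replicate 1 lay well under the other samples, and CNO replicate 4 lay highest. In bulk RNA fewer cells of a type and less RNA per cell cannot be told apart.

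Most non-clustered protocadherins were higher than most clustered ones. Pcdh9 of the delta-1 group led all 70 genes at a mean of 107 TPM over the 8 samples, and Pcdh7 of the same group followed among the non-clustered genes with 48.4 TPM. Of the delta-2 group, Pcdh10 stood at 18.8 TPM and Pcdh8 at 16.0 TPM. Pcdh15, whose product forms the tip link of hair cells, stood at 13.1 TPM, Pcdh20 at 12.4 TPM and Pcdh11x at 10.2 TPM. The remaining non-clustered genes were lower. Pcdh1 and Pcdh17 stood at 6.84 and 6.67 TPM, Pcdh19 at 3.52 TPM and Pcdh18 at 2.02 TPM. Pcdh12, the vascular endothelial protocadherin, was last at 0.234 TPM. The median over the 12 was 11.3 TPM, beside 13.4 TPM over all genes tested.

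**Figure D1:**
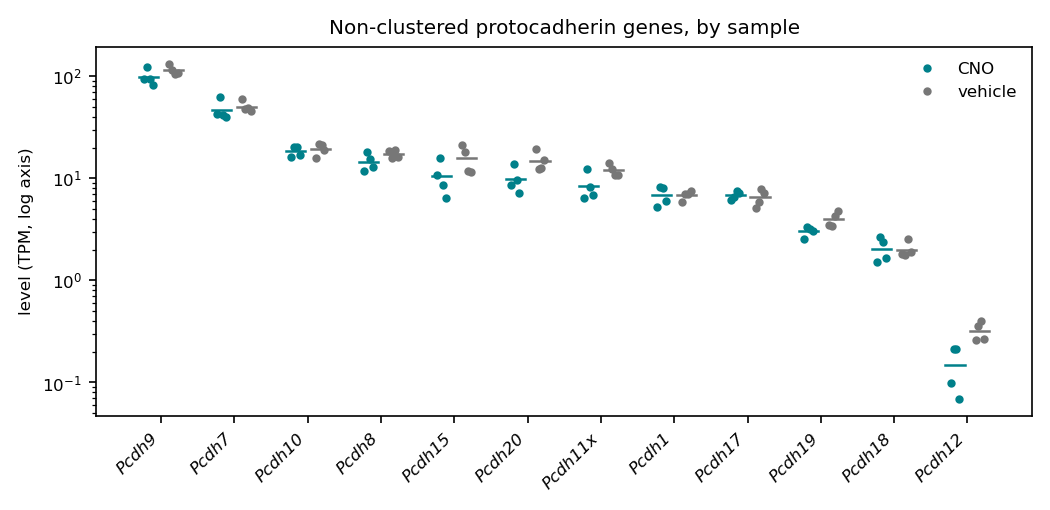
Level of the 12 non-clustered protocadherin genes in TPM on a log axis, one point per sample and a bar at the group mean, for the 4 CNO and the 4 vehicle samples. Pcdh9 was highest and Pcdh12 lowest in both groups. On this scale the groups did not overlap for Pcdh12 and Pcdh19, whereas in normalized CPM they overlapped for all 12 genes. The share of all genes without overlap in TPM was not computed.

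In the clusters 4 of the 5 C-type members, at the downstream end of the alpha and gamma clusters (chr18:36930184-37187661 and chr18:37661793-37841873, GRCm38), were the most abundant clustered genes, and the other, Pcdhac1, stood at 5.30 TPM, just under Pcdhga12 (5.43 TPM) and Pcdha12 (5.38 TPM). Pcdhgc5 reached 52.8 TPM, Pcdhac2, which serotonergic axons need for their tiling, 42.3 TPM, and Pcdhgc3 10.9 TPM. The gene ENSMUSG00000023036, named Pcdhga8 in the tables but Pcdhgc4 in the GENCODE annotation, the gamma isoform on which cortical interneuron survival is known to depend, reached 15.6 TPM, and it is called Pcdhgc4 from here on. Together these 4 genes and Pcdhac1 made up 52.8% (51.1% to 55.6% over the 8 samples) of the summed TPM of the clustered genes. Within the alpha cluster Pcdhac2 alone took 54.0% ± 1.74 in CNO and 53.0% ± 4.12 in vehicle samples (SD, n = 4 each). Within the gamma cluster Pcdhgc5 took 40.0% ± 2.56 in CNO and 43.3% ± 4.97 in vehicle samples (SD, n = 4 each). The single-exon genes of the beta cluster (chr18:37264938-37524479) had no such leader, with means between 0.254 and 3.93 TPM and a median of 1.41 TPM. The highest of them were Pcdhb9, Pcdhb20 and Pcdhb17.

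**Figure D2:**
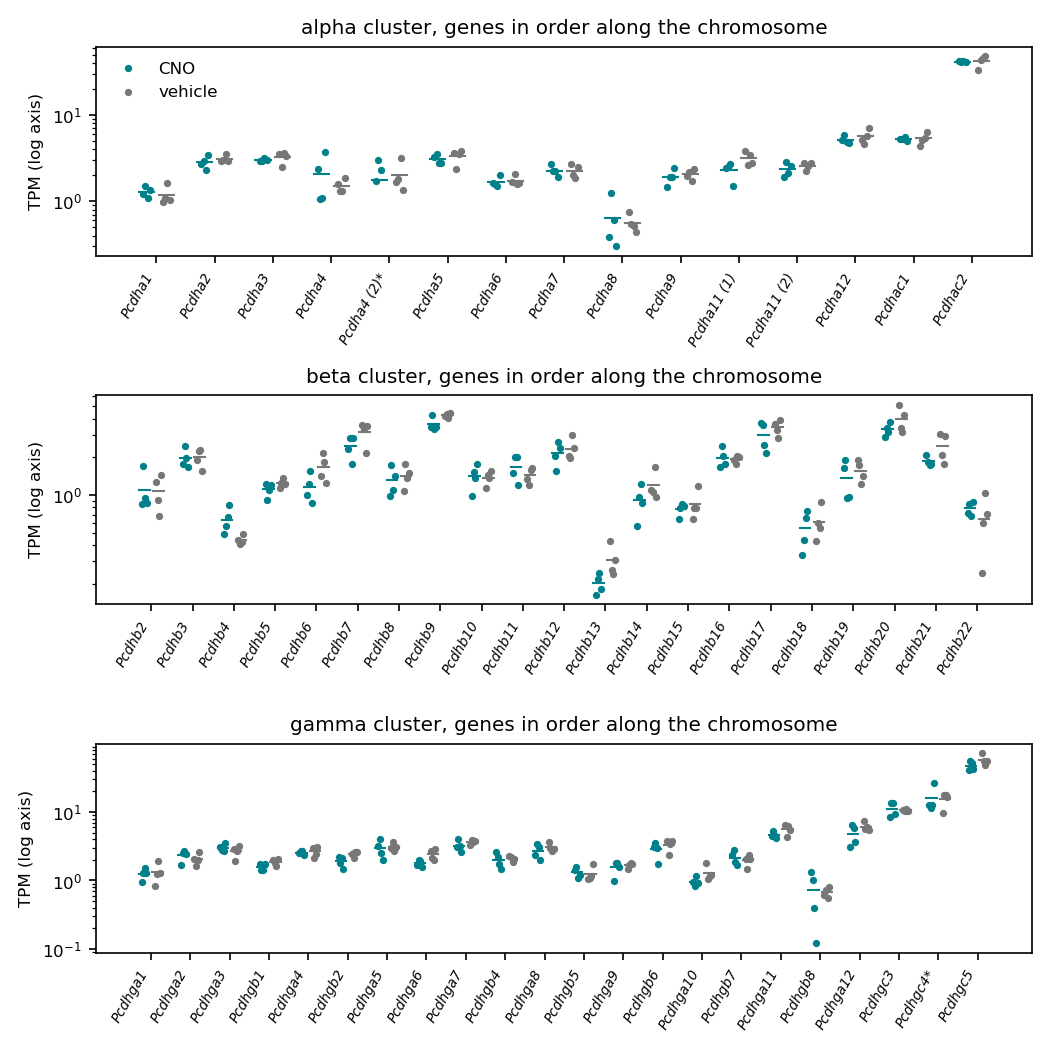
Level in TPM on log axes of the genes of the alpha, beta and gamma clusters, in their order along the chromosome, one point per sample and a bar at the group mean. At the right end of the alpha and gamma panels Pcdhac2 (42.3 TPM) and the C-type gamma genes up to Pcdhgc5 (52.8 TPM) stood above the other genes, whereas Pcdhac1 lay near its neighbour Pcdha12. Pcdhgc4* is ENSMUSG00000023036, Pcdha4 (2)* is ENSMUSG00000103458, and Pcdha11 (1) and (2) are ENSMUSG00000007440 and ENSMUSG00000102206. The value of Pcdha4 (2)* in CNO replicate 4 is 0 and cannot be drawn on a log axis.

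How reads were divided among clustered genes limits what can be said of any one of them. The share of a gene's 31-base words that also occur in another gene ran from 45.5% to 99.1% in the alpha and from 33.0% to 67.5% in the gamma cluster, where the constant exons are shared, and from 5.19% to 22.5% in the beta cluster. It was at most 0.193% for a non-clustered gene. A pair of genes named Pcdha4 is given as an example, chosen after its values were seen. The gene ENSMUSG00000103458, annotated as a locus that runs from the alpha into the gamma cluster (Gm42416), was listed at 0 CPM in CNO replicate 4, in which the other, ENSMUSG00000104252, had its highest value, 7.78 CPM. Their sum lay between 4.85 and 7.78 CPM over the 8 samples. Whether the division of shared reads produced these values was not tested. With so many shared words the level of a single alpha or gamma gene is uncertain, and the sum of a cluster is less so.

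The comparison of CNO with vehicle samples asks whether 48 h of raised PV+ interneuron activity changed the translated protocadherin RNA. No protocadherin gene met the study's 3 cut-offs together: a mean over 1 TPM, more than 1.5-fold difference and an adjusted p below 0.05. The edgeR quasi-likelihood test called 0% of the 17495 genes by this rule, and the lowest adjusted p of a protocadherin gene was 0.817. The study used edgeR with robust dispersions and reported genes called in both directions from these samples, whereas the quasi-likelihood test called none. The likelihood ratio test with robust dispersions put 15 of all genes at an adjusted p under 0.05. DESeq2 put 11 there, in both cases whatever their fold or level. None of these was a protocadherin gene, whose lowest adjusted p was 0.574 and 0.842 by these tests. At an unadjusted p under 0.05, 6 of the 70 were lower with CNO (8.57%), where 2.65% of all genes tested were, and 1 was higher (1.43%), where 1.44% of all genes were. These 7 do not pass the correction, so none of them is shown to have changed. Of the 70 estimates 44 were negative (62.9%, beside 49.6% of all genes tested) and 26 positive. Their median log2 fold change was -0.05, beside 0.00 over all genes tested.

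By family, 4 of the 12 non-clustered genes had an unadjusted p under 0.05 with lower values (33.3%), as did 1 of 15 alpha and 1 of 22 gamma genes, and 1 of 21 beta genes with higher values. Over all genes tested 2.65% were lower and 1.44% higher at such a p. The 6 lower protocadherin genes became 0 without CNO replicate 1 and 1 without CNO replicate 4. The median log2 fold change was -0.16 for the non-clustered, -0.02 for the alpha, -0.10 for the beta and -0.02 for the gamma genes. Fold changes of the alpha genes ran from -0.41 to 0.46 on the log2 scale, those of the beta genes from -0.53 to 0.60 and those of the gamma genes from -0.36 to 0.25. In normalized CPM the 4 CNO and the 4 vehicle values did not overlap for 1 gene with higher values, Pcdhb4. The same held for 1 gene with lower values, Pcdhga6. Such a separation was found for 0.789% of all genes in the higher and 1.63% in the lower direction, close to 1 in 70. In TPM the groups overlapped for both genes. Pcdhb4 read 0.489 TPM in CNO replicate 1 and 0.495 TPM in vehicle replicate 4. Pcdhga6 read 2.014 TPM in CNO replicate 2 and 2.000 TPM in vehicle replicate 3.

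**Figure D3:**
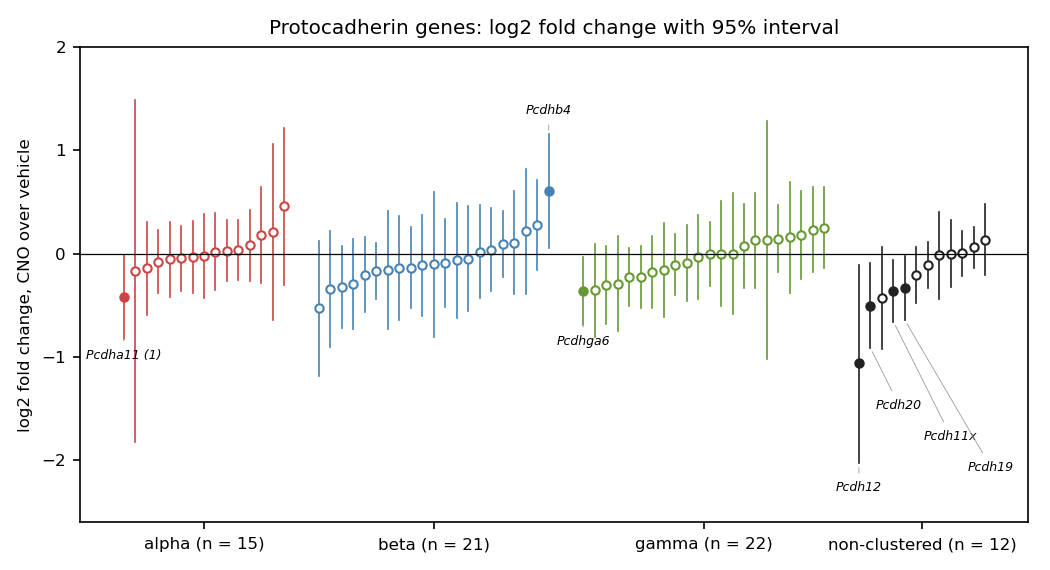
Log2 fold change (CNO over vehicle) of the 70 protocadherin genes by family, ordered within each family, as points with 95% intervals. Filled points, with names, have an unadjusted p under 0.05, and 4 of these 7 belong to the non-clustered group. Over all genes tested 2.65% were lower and 1.44% higher at such a p. Pcdha11 (1) is ENSMUSG00000007440. No gene passed the adjustment over all genes.

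Pcdh20, a non-clustered gene (chr14:88464743-88471396, minus strand), had the smallest unadjusted p of the family. Its values were 19.9, 28.6, 21.1 and 15.4 CPM in CNO replicates 1 to 4 and 38.0, 25.3, 26.4 and 30.6 CPM in vehicle replicates 1 to 4. CNO replicate 2 lay among the vehicle samples, and the other 3 CNO samples lay under all of them. The log2 fold change was -0.50 (SE 0.19, 95% interval -0.91 to -0.09, edgeR quasi-likelihood p = 0.021, adjusted p = 0.817), and the exact two-sided permutation test over the 70 assignments gave p = 0.0857, where the smallest possible value is 0.0286. The lowest CNO value and the highest vehicle value belonged to CNO replicate 4 and vehicle replicate 1, the samples with the highest and the lowest marker index. With the index as a covariate the log2 fold change of Pcdh20 was -0.28, still at an unadjusted p under 0.05 (adjusted p = 1), and without vehicle replicate 1 it was -0.37, no longer at one.

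Pcdh11x and Pcdh19 are both X-linked delta protocadherins, and variants of the latter cause an epilepsy that affects mainly heterozygous females. Pcdh11x (chrX:120290259-120910619) read 13.2, 20.0, 15.1 and 13.3 CPM in the CNO samples and 21.1, 19.7, 18.8 and 19.4 CPM in the vehicle samples. The vehicle samples were tightly grouped, and CNO replicate 2 again lay among them (log2 fold change -0.36, SE 0.14, edgeR p = 0.023, adjusted p = 0.817, exact permutation p = 0.114). Pcdh19 (chrX:133582860-133688987, minus strand) read 11.7, 14.1, 14.8 and 14.7 CPM against 14.4, 15.0, 19.5 and 20.7 CPM. Vehicle replicates 3 and 4 were high, vehicle replicate 2 lay just above the CNO samples and vehicle replicate 1 among them (log2 fold change -0.33, SE 0.14, edgeR p = 0.037, adjusted p = 0.817, exact permutation p = 0.114). With the marker index as a covariate Pcdh11x stood at -0.25, no longer at an unadjusted p under 0.05, and Pcdh19 at -0.44, still at one (adjusted p = 1 for both). Xist, the RNA of the inactive X chromosome, was picked for these X-linked genes after its values were seen and ranged from 4.73 to 20.9 CPM in CNO and from 3.61 to 28.2 CPM in vehicle samples. The Y-linked genes Ddx3y, Eif2s3y, Kdm5d and Uty were detected in every sample, with log2 fold changes of 0.16, -0.02, -0.26 and 0.08. The shares of males and females in each pool were not given in the sources used here. Their part, and that of Xist, in the values of Pcdh11x and Pcdh19 was not tested.

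Pcdh12 (chr18:38267089-38284402, minus strand) had the lowest level and the largest negative estimate of the family. Its counts were 5, 12, 15 and 5 in the CNO and 12, 23, 26 and 17 in the vehicle samples, or 0.106 to 0.321 and 0.268 to 0.540 CPM. The groups overlapped at 1 vehicle sample, and the 95% interval of the log2 fold change of -1.06 ran from -2.03 to -0.11 (edgeR p = 0.032, adjusted p = 0.817, exact permutation p = 0.0571). Its mean was under the 1 TPM that a call required. Pcdh12 is known as an endothelial gene, and the part of vascular cells in its values was not tested. Of the 7 endothelial and pericyte markers 5 had positive estimates, with a median log2 fold change of 0.28 and none at an unadjusted p under 0.05. Their mean log2 CPM ranged from 2.68 to 4.18 in the CNO and from 3.25 to 3.83 in the vehicle samples.

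**Figure D4:**
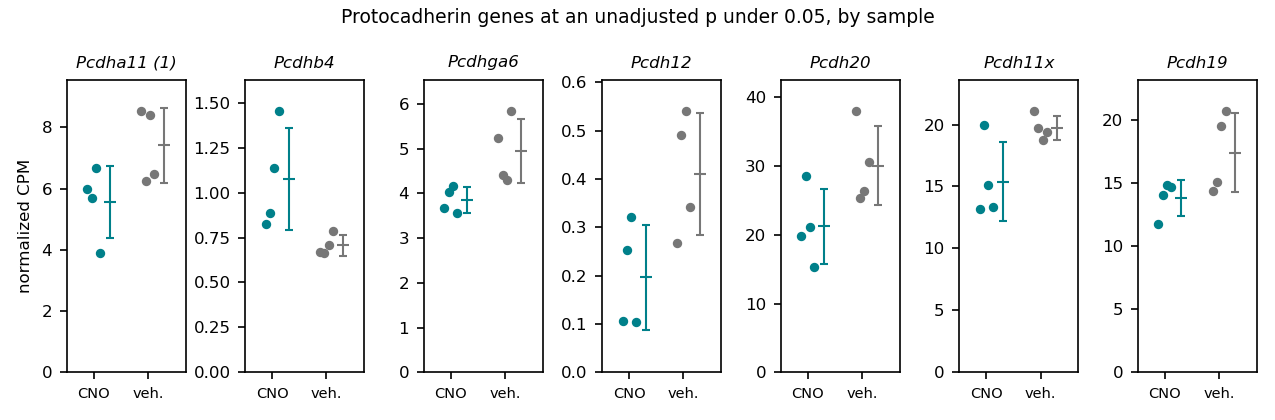
Normalized CPM of the 7 protocadherin genes with an unadjusted p under 0.05, one point per sample, with the group mean and SD (n = 4) beside the points and axes that start at 0. The groups did not overlap for Pcdhb4 and Pcdhga6, and for Pcdh20 and Pcdh11x 1 CNO sample lay among the vehicle samples. Pcdha11 (1) is ENSMUSG00000007440 and veh. is vehicle.

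The other members of the delta-1 group had estimates near 0. Pcdh9 had 171 ± 16.6 CPM in CNO and 185 ± 7.60 CPM in vehicle samples (SD, n = 4 each), a log2 fold change of -0.11 with an interval from -0.33 to 0.11. Pcdh7 had 120 ± 12.3 against 120 ± 5.04 CPM (SD, n = 4 each), a difference of 0.00 with an interval from -0.21 to 0.22. For Pcdh1 the estimate was also 0.00, with an interval from -0.32 to 0.32. At this precision a change of 1.5-fold in either of the last pair lay outside the interval.

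Of the delta-2 group, Pcdh8 (Arcadlin) is known as a gene that neuronal activity induces at synapses. It had 26.2 ± 3.97 CPM in CNO and 30.2 ± 3.09 CPM in vehicle samples (SD, n = 4 each), and its log2 fold change was -0.21 with an interval from -0.48 to 0.07. Pcdh10, which takes part in activity-dependent synapse elimination, had 51.6 ± 4.15 against 49.5 ± 2.81 CPM (SD, n = 4 each), a difference of 0.06 with an interval from -0.14 to 0.26. The estimates of Pcdh17, which organizes presynaptic assembly, and of Pcdh18 were 0.14 (interval -0.21 to 0.48) and -0.02 (interval -0.44 to 0.41). Pcdh15 read 14.6, 18.7, 11.8 and 9.72 CPM in the CNO and 23.9, 21.3, 14.6 and 14.0 CPM in the vehicle samples. Its groups overlapped widely, and the log2 fold change was -0.43 (interval -0.93 to 0.06, edgeR p = 0.081, adjusted p = 0.817, exact permutation p = 0.171). With the marker index as a covariate it was -0.14 (adjusted p = 1).

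Upstream sequence of 3 non-clustered genes is shown. Pcdh20 and Pcdh19 had an unadjusted p under 0.05 and a sequence at hand. For Pcdh11x and Pcdh12, which also had such a p, no sequence was at hand. Pcdh10 had, of the genes searched, the most matches to a cyclic-AMP response half-site. Through this element activity acts on many neuronal promoters. The sequences are the 250 bases before the start in RefSeq (GRCm38.p6), on the strand of the gene, with motif letters in capitals.

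Pcdh20 (chr14:88471397-88471646, minus strand): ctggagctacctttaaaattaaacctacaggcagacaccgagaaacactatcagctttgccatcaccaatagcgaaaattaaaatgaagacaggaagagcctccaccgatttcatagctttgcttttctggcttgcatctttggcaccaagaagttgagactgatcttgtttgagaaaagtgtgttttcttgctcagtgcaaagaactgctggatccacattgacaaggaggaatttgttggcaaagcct
Pcdh19 (chrX:133688994-133689243, minus strand): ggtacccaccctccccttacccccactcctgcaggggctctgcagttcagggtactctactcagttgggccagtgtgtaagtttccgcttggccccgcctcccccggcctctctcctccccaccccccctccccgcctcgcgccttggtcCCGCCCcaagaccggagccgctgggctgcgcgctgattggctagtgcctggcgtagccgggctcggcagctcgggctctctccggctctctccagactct
Pcdh10 (chr3:45378148-45378397, plus strand): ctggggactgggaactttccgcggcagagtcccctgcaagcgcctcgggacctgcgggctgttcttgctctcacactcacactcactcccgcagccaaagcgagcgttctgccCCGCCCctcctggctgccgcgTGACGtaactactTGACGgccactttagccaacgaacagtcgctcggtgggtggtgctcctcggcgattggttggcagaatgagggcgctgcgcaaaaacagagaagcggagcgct

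Windows of 300 bases, 250 before and 50 after the start, were at hand for 9 members, all of them non-clustered, and were searched on both strands for 4 motifs. The full cyclic-AMP response element TGACGTCA occurs in 1.79% of all 32851 windows and in none of the 9. The AP-1 element TGANTCA occurs in 7.81% of all windows and in none of the 9. The half-site TGACG, which lies within the full element and occurs in 20.8% of all windows, was found 2 times for Pcdh10 and once in each of the 2 overlapping windows of Pcdh9. The GC box GGGCGG, which occurs in 35.7% of all windows, was found once each for Pcdh10, Pcdh17, Pcdh18 and Pcdh19. Pcdh20 had none of these letters, 4 CpG and a GC content of 43.7%, the lowest of the 9, where the median over all windows was 52.7%. The window of Pcdh19 had 18 CpG and 67.7% GC, so Pcdh20 and Pcdh19 did not share these features.

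In the alpha cluster the C-type genes had estimates near 0. Pcdhac2 had 113 ± 6.92 CPM in CNO and 111 ± 19.8 CPM in vehicle samples (SD, n = 4 each), a log2 fold change of 0.03 with an interval from -0.26 to 0.32. Its vehicle values were 81.6, 114, 124 and 123 CPM, with replicate 1 apart. The estimate of Pcdhac1 was 0.04 (interval -0.25 to 0.33) and that of Pcdha12, the most abundant of the other alpha genes, -0.08 (interval -0.38 to 0.23). Under an unadjusted p of 0.05 stood only Pcdha11 (ENSMUSG00000007440), with 5.98, 5.68, 6.66 and 3.89 CPM in the CNO and 8.52, 6.23, 8.39 and 6.48 CPM in the vehicle samples. CNO replicate 3 lay above vehicle replicates 2 and 4, and 63.0% of the gene's 31-base words occur elsewhere (log2 fold change -0.41, SE 0.18, edgeR p = 0.046, adjusted p = 0.817, exact permutation p = 0.0857). The second gene of that name, ENSMUSG00000102206, had an estimate of -0.14. The largest positive estimate of the cluster, 0.46 (interval -0.30 to 1.22), was that of Pcdha4 (ENSMUSG00000104252), the gene of the pair described above.

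Of the beta genes, Pcdhb4 (chr18:37307455-37311172) was the only one of the 70 with higher values and an unadjusted p under 0.05. It read 0.827, 0.887, 1.14 and 1.45 CPM in the CNO and 0.671, 0.662, 0.706 and 0.787 CPM in the vehicle samples. All CNO values lay above all vehicle values, by a narrow gap (log2 fold change 0.60, SE 0.25, edgeR p = 0.034, adjusted p = 0.817, exact permutation p = 0.0286). Its mean of 0.542 TPM was under the 1 TPM a call required. With the marker index as a covariate the estimate was 0.47, no longer at an unadjusted p under 0.05 (adjusted p = 1). The most abundant beta genes had small negative estimates, -0.17 for Pcdhb9, -0.20 for Pcdhb20 and -0.13 for Pcdhb17, none at an unadjusted p under 0.05. The lowest estimate, -0.53, was that of Pcdhb13 at 0.254 TPM (interval -1.18 to 0.12).

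In the gamma cluster the 3 C-type genes differed in the sign of their estimates. Pcdhgc5, whose product binds GABA-A receptors, had 93.5 ± 13.1 CPM in CNO and 110 ± 14.6 CPM in vehicle samples (SD, n = 4 each), a log2 fold change of -0.23 (interval -0.51 to 0.06). Vehicle replicate 1 was highest at 130 CPM, and the groups overlapped. Pcdhgc4 read 26.2, 20.5, 26.7 and 41.9 CPM in the CNO and 15.7, 27.9, 33.1 and 26.6 CPM in the vehicle samples. The highest value was that of CNO replicate 4 and the lowest that of vehicle replicate 1, the samples with the highest and the lowest marker index. The log2 fold change was 0.16 (interval -0.38 to 0.70) without and -0.22 with the index as a covariate (adjusted p = 1). For Pcdhgc3 the estimate was 0.15 (interval -0.18 to 0.47), and for Pcdhga3, the highest of the cluster, 0.25 (interval -0.14 to 0.65). Pcdhga6 (chr18:37707039-37841873) read 3.67, 4.04, 4.15 and 3.56 CPM in the CNO and 5.23, 4.42, 4.30 and 5.83 CPM in the vehicle samples. All CNO values lay under all vehicle values (log2 fold change -0.36, SE 0.15, edgeR p = 0.034, adjusted p = 0.817, exact permutation p = 0.0286), and 46.1% of the gene's 31-base words occur elsewhere.

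Summed over each family, the levels of CNO and vehicle samples lay close together. The alpha genes summed to 193 ± 8.00 CPM in CNO and 192 ± 25.7 CPM in vehicle samples (SD, n = 4 each). The beta genes summed to 59.5 ± 1.95 against 63.8 ± 2.20 CPM, the gamma genes to 239 ± 18.7 against 256 ± 9.96 CPM and the non-clustered genes to 479 ± 38.2 against 513 ± 16.4 CPM (SD, n = 4 each). The groups overlapped in every family, narrowly for the beta genes, which ran from 57.2 to 61.9 CPM with CNO and from 61.7 to 66.9 CPM with vehicle. With each family merged into 1 feature, the log2 fold change was 0.01 (95% interval -0.24 to 0.26) for alpha, -0.10 (-0.27 to 0.07) for beta, -0.10 (-0.31 to 0.12) for gamma and -0.10 (-0.33 to 0.13) for the non-clustered genes. A change of 1.5-fold in the level of a whole family lay outside all 4 intervals.

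**Figure D5:**
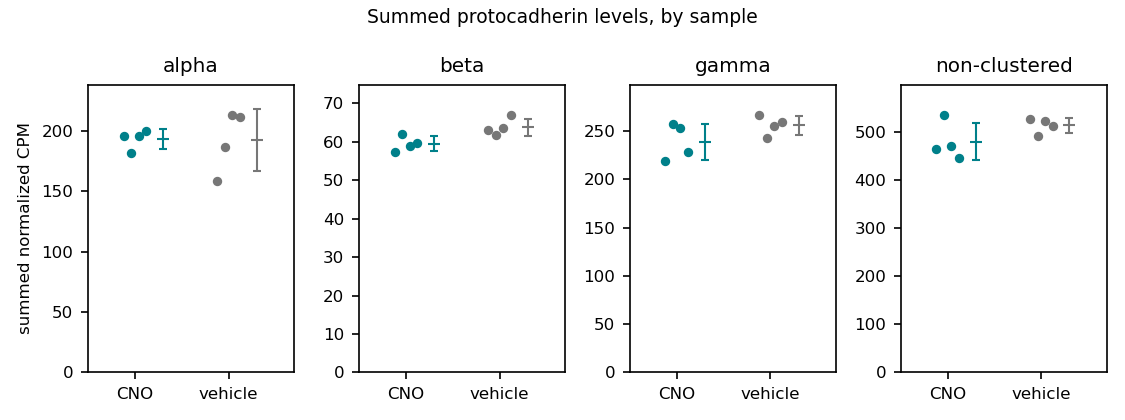
Summed normalized CPM of the alpha, beta, gamma and non-clustered protocadherin genes, one point per sample, with the group mean and SD (n = 4) beside the points and axes that start at 0. The sums of the 2 groups overlapped in each family, and among the vehicle groups the alpha cluster was spread most, from 158 to 213 CPM.

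Genes that regulate the clusters or act with their products were counted for context, from lists of known roles. Over all genes tested, 49.6% of estimates were negative. At an unadjusted p under 0.05, 2.65% of all genes were lower and 1.44% higher. Of 17 tested regulators of promoter choice and chromatin (CTCF, cohesin, DNA methyltransferases and others) 14 had negative estimates, with a median log2 fold change of -0.07, and 1 had an unadjusted p under 0.05. This was Smchd1, a repressor of the clusters, at 31.2 to 37.7 CPM in CNO and 35.2 to 49.3 CPM in vehicle samples (log2 fold change -0.27, edgeR adjusted p = 0.817). Of the 6 proteases that cleave protocadherins, among them Adam10 and the presenilins, 3 estimates were positive and 3 negative, and none had an unadjusted p under 0.05. Of 14 cytoplasmic partners 11 were negative, and Ret, a receptor tyrosine kinase that associates with protocadherins, was the one at an unadjusted p under 0.05 (log2 fold change 0.69, edgeR adjusted p = 0.817). Its lowest value, 2.21 CPM, was that of vehicle replicate 1, and the other vehicle samples lay between 4.85 and 5.11 CPM. Of 28 other cadherins tested, 21 were negative with a median of -0.11, and Cdh12, Cdh22 and the atypical cadherin Fat3 were lower at an unadjusted p under 0.05, with log2 fold changes of -0.30, -0.27 and -0.40. No gene of these lists passed the adjustment over all genes.

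The markers of cell types differed in the sign of their estimates, and none passed the adjustment over all genes. Of all genes tested 49.6% had negative estimates. All 12 PV interneuron markers had positive estimates, with a median log2 fold change of 0.46, and their mean log2 CPM ranged from 7.04 to 7.88 in the CNO and from 6.01 to 7.49 in the vehicle samples. Of the 12 pyramidal cell markers 11 were negative, with a median of -0.13 and a range of 5.57 to 5.89 against 5.74 to 6.06. All 8 oligodendrocyte and precursor markers were negative (median -0.23, 4.83 to 5.36 against 5.14 to 5.39), as were all 5 microglial markers (median -0.19, 2.90 to 3.38 against 3.03 to 3.56) and 5 of 6 astrocyte markers (median -0.15, 5.46 to 5.90 against 5.69 to 5.89). The 6 markers of SST and VIP interneurons were divided, 3 positive and 3 negative (median -0.03, 2.85 to 3.05 against 2.96 to 3.13). At an unadjusted p under 0.05 stood Gad2 among the PV interneuron markers and P2ry12 among the microglial ones, and no marker of these lists was undetected. The part of these marker differences in the single-gene estimates was not tested. The index was measured after treatment in the same samples, and all 12 of its PV interneuron markers had positive estimates. A fit with the index as a covariate therefore cannot tell an effect of CNO from a difference in marker content. With the index 3 protocadherin genes, Pcdh12, Pcdh19 and Pcdh20, were lower at an unadjusted p under 0.05 and none higher. Of all 17495 genes 341 were lower and 228 higher at such a p in the same fit.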

How the data were processed

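PV+ interneuron RNA of 4 CNO and 4 vehicle pools was obtained by RiboTag pulldown, with the SMARTer Ultra Low kit, and sequenced as pairs. The authors trimmed reads with Trim Galore, aligned them to GRCm38 (mm10) with STAR and quantified genes with Salmon and tximport (FastQC for quality; tool versions were not given in the sources used here), and deposited estimated counts per gene and TPM for every sample. No strand-specific kit is stated, so reads of overlapping antisense genes cannot be told apart. Salmon divides reads of shared exons among genes by estimate.

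Estimated counts were rounded. Genes with 10 or more counts in at least 5 of the 8 samples (17495; 17470 on unrounded counts) were fitted with edgeR 4.0.16 (R 4.3.3; trimmed-mean normalization, quasi-likelihood test, Benjamini-Hochberg over all of them). Standard errors are the unshrunk log2 fold change over the root of F, and intervals span the central 95% of t, with equal tails. Single-sample log2 values used a prior count of 2. Exact permutation tests were two-sided. P-values rest on the spread between 4 pools a group. Alternatives were the likelihood ratio test, DESeq2 1.42.0, limma 3.58.1 on log2 TPM, other scalings and filters, a replicate block, a marker covariate and leaving out each sample. The scripts were tested on simulated data.

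Genes were named by a rule: all non-clustered genes, the 3 most abundant of each cluster, C-type genes, those with an unadjusted p under 0.05 or no overlap, and the extremes of each cluster. Members, rule and lists were chosen with earlier results of these data known. Coordinates and shared 31-base words come from GENCODE M21 on GRCm38. All 71 identifiers matched, 2 under another symbol. Same-numbered samples deviated together with r of 0.026, -0.030, 0.161 and 0.239, so the numbers were not taken as pairs. No pair of samples held identical values. No clustered-gene sequence is reported here.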

Additional observations from a re-analysis of the deposited data

Results flagged for a closer look

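Single samples stood apart by Dixon's test in 2 of the 62 groups of values examined, where chance would give about 3.1. Pcdh10 read 45.3 CPM in vehicle replicate 1 beside 50.8 to 51.1 CPM in the other vehicle samples, a gap of 0.941 of the group's range. Pcdhac2 read 103 CPM in CNO replicate 2 beside 116 to 117 CPM in the other CNO samples, a gap of 0.921 of the range.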

How the results depend on the processing

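No protocadherin gene was called under any of the 18 alternatives, and the lowest adjusted p of a protocadherin gene over the 19 settings was 0.472, without CNO replicate 2. An adjusted p under 0.05 alone, with no cut-off on size, called none either. The 6 genes lower at an unadjusted p under 0.05 became 3 with the marker index as a covariate, and 0 to 7 with a sample left out: 0 without CNO replicate 1, 1 without CNO replicate 4, 2 without vehicle replicate 1 and 7 without CNO replicate 2. The count over all 17495 genes moved as well, from 464 lower as reported to 341 with the index. It was 297 without CNO replicate 1, 185 without CNO replicate 4, 229 without vehicle replicate 1 and 926 without CNO replicate 2. The 1 higher gene, Pcdhb4, became 0 with limma on log2(TPM + 1) or log2(TPM + 0.1) and with the index, and 0 or 1 with a sample left out. Over all genes the 252 higher became 185 and 178 with limma, 228 with the index and 133 to 757 with a sample left out. Protocadherin genes without overlap numbered 5 with library size only and 2 to 8 with a sample left out. With a sample left out any gene separates more easily. The share of all genes without overlap was not computed under these settings, so these counts cannot be read against it. The median of the gamma genes was -0.16 with limma on log2(TPM + 0.1). The summed differences of the beta, gamma and non-clustered genes, each -0.10 as reported, were -0.15, -0.15 and -0.16 with library size only and -0.17, -0.17 and -0.24 in TPM. The summed alpha difference, 0.02 as reported, changed sign to -0.04 and -0.05 under these settings. With library size only, 129 of all genes were higher and 736 lower at an unadjusted p under 0.05, against 252 and 464 as reported, and the median of all genes was -0.05. With limma on log2(TPM + 0.1) that median was -0.08. The cause of these shifts was not tested.

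Over the 10 alternatives that kept all samples, Pcdh20 and Pcdh19 had an unadjusted p under 0.05 in all 10, Pcdh11x in 9, Pcdha11 (ENSMUSG00000007440) in 8, Pcdhb4 in 7 and Pcdhga6 in 5. Pcdh12 had one in all 9 that tested it, since it has too few counts for a minimum of 10 in all 8 samples. With each of the 8 samples left out in turn, Pcdh20 had one in 5 fits. Pcdh11x, Pcdh19, Pcdh12 and Pcdhga6 had one in 4, and Pcdha11 (ENSMUSG00000007440) and Pcdhb4 in 3. All these fits reuse the samples by whose p the genes were picked, so they are no independent support. The sign of the estimate changed in some setting for 9 of the 27 genes followed, none of them at an unadjusted p under 0.05 in the main analysis. With the replicate block, Pcdh15 stood at -0.44, now at an unadjusted p under 0.05, and Pcdhga6 at -0.35, no longer at one (edgeR adjusted p = 0.799 for both), and the block led to no call. Low-level genes such as Pcdh12 and Pcdhb13 are limited by depth.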
